A study of Homo sapiens with 54 samples.

Results

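The 6 genes described here, G6PC1, PCK1, FBP1, PPARGC1A, IGFBP1 and PDK4, are liver genes of glucose production and fuel choice that insulin is known to repress. They were taken by symbol from a table of 50037 gene entries, and each symbol had an entry. The study measured poly(A) RNA by sequencing in 54 libraries of 2 established human tumour lines, HepG2 from a liver tumour and HCT116 from a colon carcinoma. Cells in serum-containing medium received interleukin-6 (IL-6, 50 ng/mL), tumour necrosis factor alpha (TNF-α, 100 ng/mL), interleukin-10 (IL-10, 50 ng/mL) or Torin1 (1 µM), each for 3 h or 6 h. Control cells, labelled NC, received an equal volume of complete medium, and the labels give no time for them. Each line therefore had 9 groups of 3 libraries, 27 per line, and the treated groups of a line were all compared with the same 3 NC libraries. No group received insulin and no group was held without serum, so repression by insulin itself was not measured. The labels call the HepG2 cells liver cancer stem cells, and each line is a single tumour line and not a primary hepatocyte or enterocyte.

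Insulin signals in the liver through its receptor, the lipid kinase PI3K and the protein kinase AKT. AKT phosphorylates the transcription factor FOXO1, which then leaves the nucleus, and FOXO1 targets such as G6PC1, PCK1 and IGFBP1 fall. The kinase mTOR works in a pair of complexes: mTORC1 drives growth and protein synthesis, and mTORC2 phosphorylates AKT. Torin1 inhibits the mTOR kinase in both complexes. IL-6 and IL-10 act mainly through STAT3, and TNF-α through NF-κB.

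G6PC1 encodes the catalytic subunit of glucose-6-phosphatase, which makes the free glucose that the liver releases, and it is a protein-coding gene at chr17:42900799-42914438. PCK1, cytosolic phosphoenolpyruvate carboxykinase, catalyses an early committed step of gluconeogenesis and lies at chr20:57561110-57568121. FBP1, fructose-1,6-bisphosphatase, catalyses a later step and lies at chr9:94603133-94640263 on the minus strand. PPARGC1A, the coactivator PGC-1α that raises transcription of gluconeogenic and mitochondrial genes, spans chr4:23792021-24472905 on the minus strand. IGFBP1, a secreted protein that binds insulin-like growth factors, lies at chr7:45888488-45893660. PDK4, a kinase that inhibits pyruvate dehydrogenase and so spares pyruvate, lies at chr7:95583499-95596516 on the minus strand. Coordinates are those of RefSeq on GRCh38.p14, and all 6 genes are annotated as protein-coding.

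The RefSeq promoter table, 250 bases before to 50 bases after each start on GRCh38.p14, held 4 of the 6 genes, all but PCK1 and IGFBP1. The promoters of G6PC1 and PDK4 are shown because G6PC1 rose after Torin1 in HepG2 and PDK4 was the only member that passed the expression minimum in HCT116. Both are written 5′ to 3′ on the gene's own strand. Capitals mark TGTTT and its reverse complement AAACA, the start of the forkhead core TGTTTAC that FOXO factors bind, and also GTTAAT in G6PC1 and CGTCA, the reverse complement of TGACG, in PDK4.
G6PC1, chr17:42900549-42900848, plus strand: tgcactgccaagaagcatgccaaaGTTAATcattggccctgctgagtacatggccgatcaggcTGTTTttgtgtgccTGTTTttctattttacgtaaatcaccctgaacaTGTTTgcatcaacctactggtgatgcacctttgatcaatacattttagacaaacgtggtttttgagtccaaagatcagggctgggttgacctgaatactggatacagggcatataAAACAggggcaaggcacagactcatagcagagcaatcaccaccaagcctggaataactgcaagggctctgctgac
PDK4, chr7:95596467-95596766, minus strand: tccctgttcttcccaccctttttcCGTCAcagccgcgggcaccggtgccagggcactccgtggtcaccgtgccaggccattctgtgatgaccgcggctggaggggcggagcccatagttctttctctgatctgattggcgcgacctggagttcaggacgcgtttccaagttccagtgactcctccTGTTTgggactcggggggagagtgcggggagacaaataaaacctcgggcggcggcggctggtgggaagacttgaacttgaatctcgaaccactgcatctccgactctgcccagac

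Both strands were searched. In G6PC1, TGTTT stood 187, 173 and 140 bases before the start, and AAACA 25 bases before it. TGTTT or its complement is found in 44.8% of the 27305 promoters in the table, and 2.52% of them hold at least the 4 matches of G6PC1. GTTAAT, found in 6.89% of promoters, stood 226 bases before the G6PC1 start. These 2 short words were chosen after the G6PC1 and PDK4 sequences had been read. PDK4 had TGTTT 65 bases and CGTCA 226 bases before its start. PPARGC1A had TGACG 119 bases and AAACA 89 bases before its start, and FBP1 had no match to any word searched. TGACG was found in 25.0% of promoters and lies within TGACGTCA, the full cAMP response element, which was found in 1.98%. No member of the 4 matched TGTTTAC (3.41% of promoters), TGACGTCA, the insulin response element core CAAAACAA (1.64%), CAAAGTCCA (0.359%), TTGCNNAA (10.6%) or the full HNF1 motif (0.00366%). A match describes letters only. Only 1 window per gene was searched, so any promoter at another start of a gene was not read. The PPARGC1A window, chr4:24472856-24473155, lies at the upstream end of a gene span of 680885 bases.

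Depth, counted as whole reads recovered from the deposited FPKM values (fragments corrected for the length of the transcript and the size of the library), ran from 46.3 M to 93.7 M reads per HepG2 library and from 38.5 M to 55.7 M per HCT116 library. In HepG2, 9 of 10 hepatocyte markers were at 1 FPKM or more in every library, and their sum lay between 13305 and 15928 FPKM, against 2.35 to 9.16 in HCT116. In HCT116, CDX2 was the only 1 of 7 colon markers at 1 FPKM or more in every library, and the colon list summed to 1.54 to 3.29 FPKM there. It summed to 71.0 to 97.9 FPKM in HepG2, where VIL1 (38.2 FPKM or more) and LGR5 (26.8 or more) made up most of it. Kidney proximal tubule markers, from the other gluconeogenic organ, summed to at most 0.0485 FPKM in HepG2 and 0.143 in HCT116. Adipocyte markers stayed at or below 0.243 FPKM and fibroblast markers at or below 1.82 in both lines. In HepG2, SLC22A6 of the kidney list, FABP4 of the adipocyte list, COL3A1 of the fibroblast list, PTPRC of the blood list and CDX1, KRT20 and GPA33 of the colon list were listed at 0 in every library. Blood cell markers summed to 24.6 to 37.6 FPKM in HepG2, where 1 of 5, the macrophage and lysosome gene CD68, was at 1 FPKM or more in every library. Known targets moved with IL-6 and TNF-α in HepG2: SOCS3, a STAT3 target, rose from 0.0836 ± 0.0363 to 3.58 ± 0.875 FPKM after 3 h of IL-6 (log2 change 2.06), and BIRC3, an NF-κB target, from 1.82 ± 0.0767 to 21.3 ± 1.18 FPKM after 3 h of TNF-α (2.98). After IL-10, 3 of the 6 target genes checked (SOCS3, STAT3, FGB, NFKBIA, BIRC3 and TNFAIP3) were higher at 3 h and 3 lower at 6 h. Of all genes tested, 19.1% were called at 3 h of IL-10 (809 higher, 1340 lower) and 11.7% at 6 h (212 higher, 1105 lower).

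In HepG2, Torin1 was followed by the highest level of every member that was well measured there: G6PC1, PPARGC1A and IGFBP1 rose at 3 h and stood higher still at 6 h, while PCK1 rose at 3 h and was back among the controls at 6 h. IL-6 and TNF-α split the group. Both were followed by less G6PC1 and PPARGC1A and more PCK1 and IGFBP1 at 3 h. After 3 h of IL-10 those means stood on the same sides of NC, with 2 members called (PPARGC1A and IGFBP1). Against IL-10 at 3 h, PCK1 was not called for IL-6, nor IGFBP1 for TNF-α. At 6 h of IL-10, 1 member was called. FBP1 and PDK4 were near the limit of measurement in HepG2, and in HCT116 only PDK4 had a level that could be followed. In each group below, values are FPKM in libraries 1, 2 and 3, then the mean ± SD (n = 3). Changes are differences of log2(FPKM + 1) with limma's standard error (SE) and its p-value adjusted by Benjamini-Hochberg over all genes tested in that line. A gene is called changed when this adjusted p is below 0.05, and it was tested when at least 3 of the 27 libraries held 1 FPKM or more. The added 1 shrinks changes of genes near or below 1 FPKM, so the ratio of the group means is given beside them. In these bulk libraries, fewer cells of a type and less RNA per cell cannot be told apart.

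G6PC1 stood at 1.11, 1.02 and 0.983 FPKM in the HepG2 NC libraries (1.04 ± 0.0667). After 3 h of Torin1 it stood at 4.54, 3.70 and 4.28 (4.17 ± 0.433), and after 6 h at 6.69, 6.48 and 6.27 (6.48 ± 0.207). Every Torin1 library lay above every NC library, and every 6 h library above every 3 h library. The mean was 4.02-fold that of NC at 3 h (log2 change 1.34, SE 0.09, adjusted p = 7.46e-11, limma) and 6.25-fold at 6 h (1.88, SE 0.09, adjusted p = 1.71e-13).

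PCK1 was low, at 0.241, 0.105 and 0.267 FPKM in NC (0.205 ± 0.0868), or 65, 23 and 102 reads. The 3 h Torin1 libraries held 1.44, 1.32 and 1.31 FPKM (1.36 ± 0.073), and the 6 h libraries 0.207, 0.263 and 0.243 (0.238 ± 0.0284). All 3 h Torin1 libraries were thus far above NC, and the 6 h libraries lay within the range of NC. At 3 h the mean was 6.64-fold that of NC (log2 change 0.97, SE 0.07, adjusted p = 4.82e-10, limma), and at 6 h 1.16-fold (0.04, SE 0.07, adjusted p = 0.642). PCK1 passed the minimum of 1 FPKM only through the 3 Torin1 3 h libraries, where it had to be high. With a minimum of 0.1 FPKM, which PCK1 reached in every HepG2 library, the 3 h adjusted p was 1.24e-10.

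PPARGC1A was measured at 1.08, 1.18 and 1.10 FPKM in NC (1.12 ± 0.0494). Torin1 libraries held 2.84, 2.59 and 2.95 FPKM at 3 h (2.79 ± 0.187) and 5.71, 5.80 and 6.31 at 6 h (5.94 ± 0.324). The 3 sets of libraries did not overlap and rose from NC to 3 h to 6 h. The mean was 2.49-fold that of NC at 3 h (log2 change 0.84, SE 0.05, adjusted p = 4.23e-12, limma) and 5.30-fold at 6 h (1.71, SE 0.05, adjusted p = 3.24e-17).

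IGFBP1 was the one abundant member, at 127, 129 and 118 FPKM in NC (124 ± 5.82). After Torin1 its libraries held 508, 461 and 463 FPKM at 3 h (477 ± 26.7) and 833, 858 and 901 at 6 h (864 ± 34.2). Here too the 3 sets did not overlap, with 6 h above 3 h and 3 h above NC. The mean was 3.84-fold that of NC at 3 h (log2 change 1.93, SE 0.09, adjusted p = 1.78e-13, limma) and 6.95-fold at 6 h (2.79, SE 0.09, adjusted p = 3.73e-16).

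So after 3 h of Torin1, G6PC1, PCK1, PPARGC1A and IGFBP1 were called higher, with FBP1 and PDK4 below the minimum and not tested. Of all 11280 genes tested, 45.5% were called in that comparison, 19.4% as higher. After 6 h, G6PC1, PPARGC1A and IGFBP1 were called higher and PCK1 was not called. The background was 59.9% of genes called, 26.1% as higher. Hepatocyte markers, most of whose sum was ALB and AFP, summed to 13732 to 14384 FPKM in NC, 13644 to 14765 at 3 h and 14018 to 14440 at 6 h of Torin1. Of 9 tested, 1 was higher and 1 lower at 3 h, and 4 were higher and 1 lower at 6 h. At 6 h the 1 fibroblast marker tested was higher (0.46) and both blood markers tested were lower (median −0.354). That fibroblast marker, PDGFRB, reached 1 FPKM only in Torin1 6 h libraries, so it entered the test only through them. The rest of the fibroblast list was under the minimum and not tested. The part of these markers in the member changes was not tested. On recovered reads with limma-voom, where no constant is added to FPKM, the Torin1 changes at 3 h were 2.01 for G6PC1, 2.72 for PCK1, 1.32 for PPARGC1A and 1.94 for IGFBP1 on the log2 scale.

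**Figure D1:**
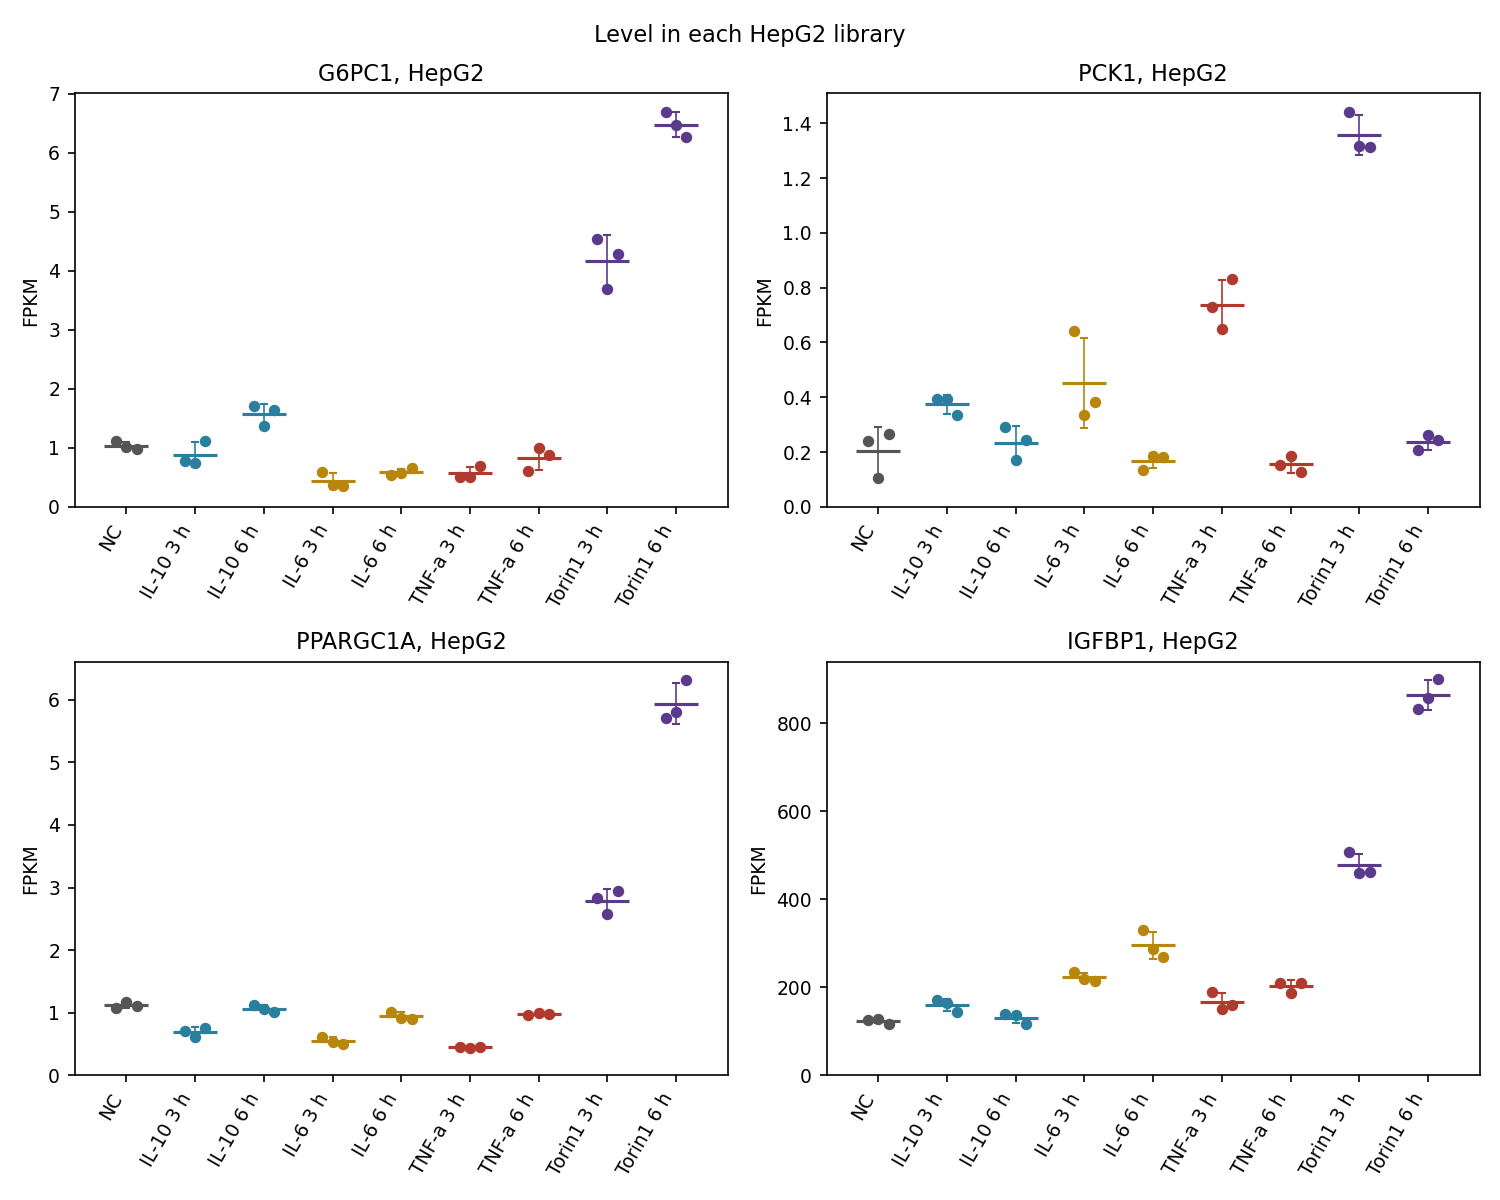
Levels of G6PC1, PCK1, PPARGC1A and IGFBP1 in the 27 HepG2 libraries, 1 panel per gene, on linear FPKM axes that differ between panels. Points are libraries and bars are group means ± SD (n = 3). The Torin1 6 h groups stand highest for G6PC1 (6.48), PPARGC1A (5.94) and IGFBP1 (864), and the Torin1 3 h group for PCK1 (1.36).

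The IL-10 groups, which share the hour of treatment with the others and use none of the NC libraries, were a second reference. This reference was not untreated. Against NC, IL-10 had PPARGC1A called lower and IGFBP1 higher at 3 h, and G6PC1 higher at 6 h. Against IL-10 at 3 h, Torin1 was followed by higher G6PC1 (log2 difference 1.46, adjusted p = 2.43e-11, limma), PCK1 (0.78, adjusted p = 1.8e-08), PPARGC1A (1.16, adjusted p = 4.54e-14) and IGFBP1 (1.57, adjusted p = 7.37e-12), where 45.5% of genes were called. At 6 h the differences were 1.54 for G6PC1 (adjusted p = 3.33e-12), 1.75 for PPARGC1A (adjusted p = 1.83e-17) and 2.72 for IGFBP1 (adjusted p = 3.93e-16), where 59% of genes were called. PCK1 did not differ from IL-10 at 6 h by this test (0.00, adjusted p = 0.962).

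After IL-6, the phosphatase gene and the coactivator were lower and the binding protein was higher. G6PC1 stood at 0.596, 0.372 and 0.355 FPKM after 3 h of IL-6 (0.441 ± 0.134) and at 0.540, 0.578 and 0.655 after 6 h (0.591 ± 0.0587). All 6 libraries were below the 3 NC libraries. The mean fell 2.35-fold at 3 h (log2 change −0.50, SE 0.09, adjusted p = 0.000143, limma) and 1.76-fold at 6 h (−0.36, SE 0.09, adjusted p = 0.00604). PPARGC1A stood at 0.616, 0.540 and 0.501 FPKM at 3 h (0.552 ± 0.0584), 2.03-fold below NC with no overlap (−0.45, SE 0.05, adjusted p = 1.47e-07). At 6 h it stood at 1.02, 0.917 and 0.897 FPKM (0.944 ± 0.065). Those libraries were also below each NC library, but the difference of −0.13 was not called (adjusted p = 0.0596) except with total-read scaling (adjusted p = 0.0388), limma-voom (0.0291) or 1 library left out.

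IGFBP1 rose after IL-6, to 235, 218 and 215 FPKM at 3 h (223 ± 10.7) and 330.1, 287 and 269 at 6 h (295 ± 31.5). The NC, 3 h and 6 h libraries formed 3 separate ranges. The mean was 1.79-fold that of NC at 3 h (log2 change 0.84, SE 0.09, adjusted p = 2.17e-07, limma) and 2.37-fold at 6 h (1.24, SE 0.09, adjusted p = 1.82e-09). PCK1 held 0.641, 0.334 and 0.383 FPKM at 3 h (0.453 ± 0.165) and 0.136, 0.187 and 0.182 at 6 h (0.168 ± 0.028). Library 1 stood above the other two at 3 h, and the 6 h libraries overlapped NC. The 3 h change of 0.27 was called (SE 0.07, adjusted p = 0.00646), but not without that library (adjusted p = 0.0537) nor when only the 6 libraries compared were fitted (0.132). At 6 h the difference was −0.04 (adjusted p = 0.757).

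At 3 h of IL-6, 2 members were called higher (PCK1, IGFBP1) and 2 lower (G6PC1, PPARGC1A), against a background of 33.9% of genes called. At 6 h, IGFBP1 was higher and G6PC1 lower, against 19.4%. Set against IL-10 of the same hour, IL-6 was followed by less G6PC1 at 3 h (log2 difference −0.38, adjusted p = 0.00323, limma, but 0.102 when only the 6 libraries were fitted) and 6 h (−0.69, adjusted p = 6.13e-06). IGFBP1 was higher by 0.48 at 3 h (adjusted p = 0.000516) and by 1.17 at 6 h (adjusted p = 3.31e-09). PPARGC1A differed by −0.13 at 3 h (adjusted p = 0.0453, called in 9 of 15 alternatives) and −0.09 at 6 h (adjusted p = 0.181). PCK1 differed by 0.08 (adjusted p = 0.491) and −0.08 (adjusted p = 0.479). In these comparisons 22.8% and 23.6% of genes were called. For G6PC1 at 6 h, the IL-10 reference itself stood above NC (0.34, called), and IL-6 stood below NC (−0.36, called).

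After 3 h of TNF-α the 4 members moved in the same directions as after IL-6. PCK1 stood at 0.730, 0.651 and 0.833 FPKM after 3 h (0.738 ± 0.0915), with no overlap with NC. This was 3.61-fold the NC mean (log2 change 0.53, SE 0.07, adjusted p = 6.53e-06, limma). By 6 h it was at 0.154, 0.187 and 0.126 FPKM (0.156 ± 0.0308), within the spread of NC (−0.06, adjusted p = 0.594). G6PC1 stood at 0.5, 0.503 and 0.696 FPKM at 3 h (0.567 ± 0.113) and 0.613, 0.998 and 0.877 at 6 h (0.830 ± 0.197). The 3 h libraries lay below NC and the 6 h libraries overlapped it. Its mean fell 1.83-fold at 3 h (−0.38, SE 0.09, adjusted p = 0.00205), and the 6 h difference of −0.16 was not called (adjusted p = 0.184).

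PPARGC1A reached its lowest level of all groups after 3 h of TNF-α, at 0.458, 0.436 and 0.452 FPKM (0.449 ± 0.0115). This was 2.50-fold below NC (log2 change −0.55, SE 0.05, adjusted p = 6.21e-09, limma). By 6 h it was at 0.957, 0.994 and 0.974 FPKM (0.975 ± 0.0186), below each NC library but not called (−0.10, adjusted p = 0.102). IGFBP1 stood at 189, 151 and 159 FPKM at 3 h (166 ± 20.1) and 211, 187 and 209 at 6 h (202 ± 13.3). Both sets lay above NC. The mean was 1.34-fold that of NC at 3 h (0.41, SE 0.09, adjusted p = 0.00107) and 1.63-fold at 6 h (0.70, SE 0.09, adjusted p = 4.09e-06).

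At 3 h of TNF-α, PCK1 and IGFBP1 were thus called higher and G6PC1 and PPARGC1A lower, where 29.7% of genes were called. At 6 h, 1 member was called, IGFBP1, where 28.7% of genes were called. Against IL-10 at 3 h, the difference was 0.34 for PCK1 (adjusted p = 0.00229, limma), −0.23 for PPARGC1A (adjusted p = 0.00141, but 0.0867 with only the 6 libraries), −0.26 for G6PC1 (adjusted p = 0.0465, called in 8 of 15 alternatives) and 0.05 for IGFBP1 (adjusted p = 0.765). The IGFBP1 call against NC at 3 h was thus not found against IL-10. At 6 h the differences were −0.50 for G6PC1 (adjusted p = 0.000152) and 0.63 for IGFBP1 (adjusted p = 9.57e-06), with −0.09 for PCK1 (adjusted p = 0.337) and −0.06 for PPARGC1A (adjusted p = 0.297). Of all genes, 16.1% were called at 3 h and 34.8% at 6 h. For G6PC1 at 6 h, the IL-10 reference itself stood above NC (0.34, called), while TNF-α against NC was not called (−0.16).

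IL-10 left differences from NC of up to 0.36 in size on the log2 scale. After 3 h, PPARGC1A stood at 0.715, 0.620 and 0.764 FPKM (0.700 ± 0.0729), all below NC and 1.60-fold lower in the mean (log2 change −0.32, SE 0.05, adjusted p = 4.47e-05, limma). IGFBP1 stood at 171, 165 and 144 FPKM (160.2 ± 14.4), all above NC and 1.29-fold higher (0.36, SE 0.09, adjusted p = 0.00642). PCK1 stood at 0.392, 0.394 and 0.335 FPKM (0.374 ± 0.0334). These libraries were also above NC, 1.83-fold in the mean, but the difference of 0.19 was not called (adjusted p = 0.0667). G6PC1 stood at 0.782, 0.744 and 1.12 FPKM (0.883 ± 0.209) and overlapped NC (−0.12, adjusted p = 0.387). So 1 member was higher and 1 lower at 3 h of IL-10, where 19.1% of genes were called.

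After 6 h of IL-10, G6PC1 stood at 1.71, 1.37 and 1.64 FPKM (1.57 ± 0.177), above every NC library and 1.52-fold in the mean (log2 change 0.34, SE 0.09, adjusted p = 0.0161, limma). It was the only member called, where 11.7% of genes were called, and the adjusted p was 0.0617, 0.0527, 0.0728 and 0.0623 without NC library 2, NC library 3, IL-10 library 1 and IL-10 library 3. PCK1 at 0.290, 0.170 and 0.243 FPKM, PPARGC1A at 1.13, 1.06 and 1.01 and IGFBP1 at 139, 136 and 117 all overlapped NC. Their adjusted p-values were 0.798, 0.660 and 0.689.

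**Figure D2:**
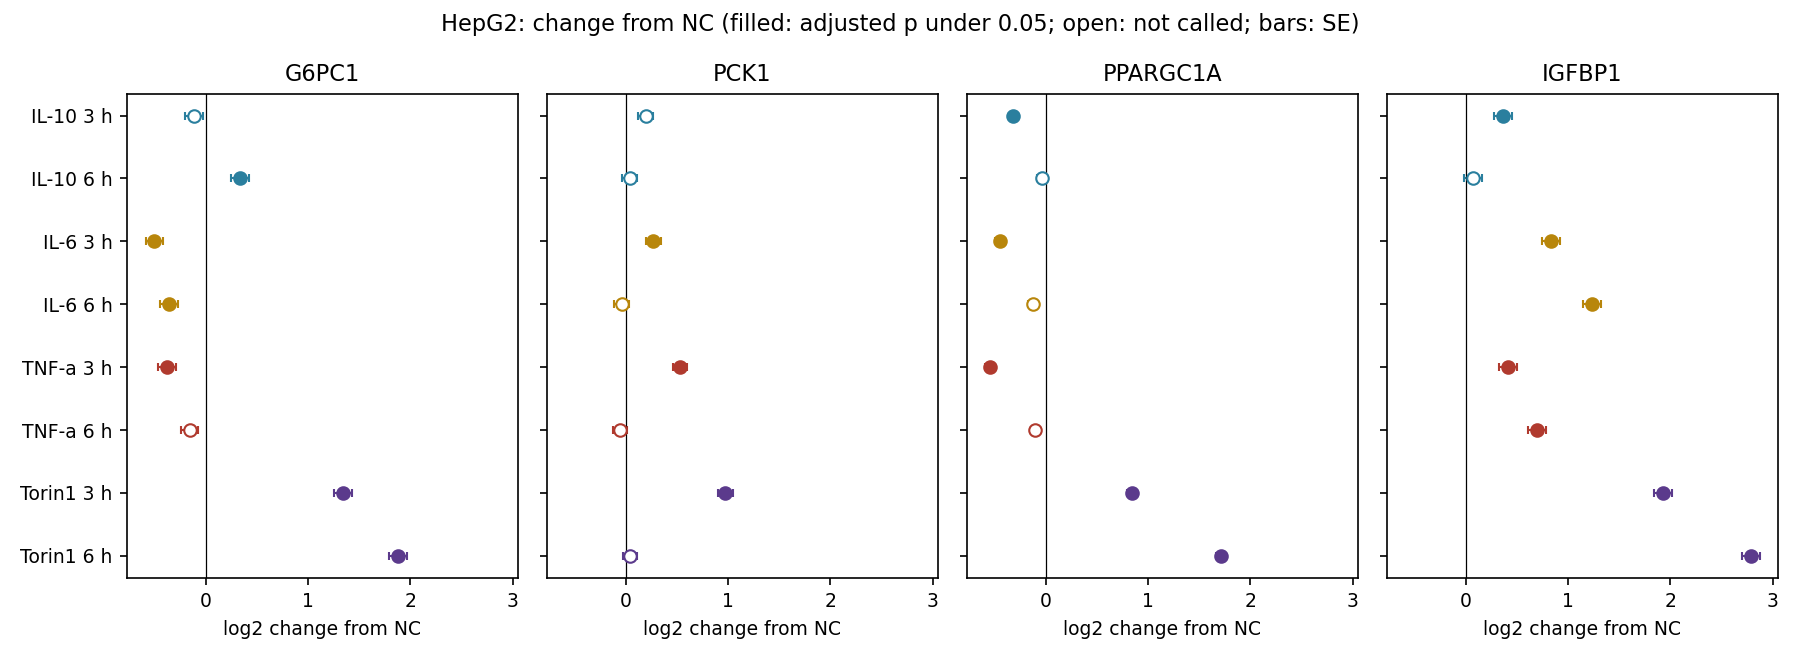
Differences of log2(FPKM + 1) from NC in HepG2 for G6PC1, PCK1, PPARGC1A and IGFBP1 after each agent at 3 h and 6 h, with limma standard errors as bars and filled points where the adjusted p is below 0.05. The Torin1 points lie at 0.84 to 2.79 except PCK1 at 6 h (0.04), and the IL-6 and TNF-α points of G6PC1 and PPARGC1A lie below 0. The IL-10 points of G6PC1 and PPARGC1A at 3 h also lie below 0.

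The hours separated the members. PCK1 was higher at 3 h than at 6 h in every library of each agent: the mean at 6 h was 5.72-fold lower for Torin1 (log2 difference −0.93, adjusted p = 2.74e-09, limma), 4.74-fold lower for TNF-α (−0.59, adjusted p = 3.18e-06), 2.69-fold lower for IL-6 (−0.31, adjusted p = 0.00332) and 1.59-fold lower for IL-10 (−0.16, adjusted p = 0.157, not called). PPARGC1A went the other way for each agent, higher at 6 h by 0.87 for Torin1 (adjusted p = 1.01e-11), 0.45 for TNF-α (3.07e-07), 0.32 for IL-6 (2.09e-05) and 0.28 for IL-10 (0.000142). Medium alone was not sampled at both hours, so time in culture and time with an agent cannot be told apart.

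G6PC1 was higher at 6 h than at 3 h for Torin1 (log2 difference 0.54, adjusted p = 6.04e-05, limma) and IL-10 (0.45, adjusted p = 0.000858). The differences for TNF-α (0.22, adjusted p = 0.0711) and IL-6 (0.15, adjusted p = 0.25) were not called. IGFBP1 was higher at 6 h for Torin1 (0.86, adjusted p = 1.6e-07), IL-6 (0.40, adjusted p = 0.00205) and TNF-α (0.29, adjusted p = 0.0203, with overlapping libraries), and lower for IL-10 (−0.29, adjusted p = 0.025). The TNF-α and IL-10 calls were each made in 9 of 15 alternatives. They were lost without TNF-α 3 h library 2 or 3 or 6 h library 1 or 3, and without IL-10 3 h library 1 or 2 or 6 h library 3. Between the hours, 36.4% of genes were called for Torin1, 25.4% for TNF-α, 23.5% for IL-6 and 16% for IL-10. These differences need no NC library, since each is between libraries of 1 agent.

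Set in order, the group means of G6PC1 ran from Torin1 6 h and Torin1 3 h to IL-10 6 h and NC, with no overlap between neighbours among these 4. NC overlapped IL-10 3 h, which was followed by TNF-α 6 h, IL-6 6 h, TNF-α 3 h and IL-6 3 h, and each of these overlapped its neighbour. PCK1 ran from Torin1 3 h to TNF-α 3 h and IL-6 3 h without overlap. IL-6 3 h and IL-10 3 h overlapped, and the 4 groups of 6 h and NC formed an overlapping set at the bottom. For PPARGC1A, Torin1 6 h and Torin1 3 h headed the order without overlap. NC and IL-10 6 h overlapped, as did TNF-α 6 h and IL-6 6 h, and IL-10 3 h, IL-6 3 h and TNF-α 3 h followed as separate steps. IGFBP1 ran from Torin1 6 h, Torin1 3 h, IL-6 6 h and IL-6 3 h to TNF-α 6 h in separate steps. TNF-α 6 h overlapped TNF-α 3 h, which overlapped IL-10 3 h. IL-10 3 h lay above IL-10 6 h, and IL-10 6 h and NC overlapped at the bottom.

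FBP1 was barely present. It lay between 0.0284 and 0.191 FPKM in the 27 HepG2 libraries, with a median of 0.0774, from 246 reads in all. NC held 0.127 ± 0.0586 FPKM from 13, 6 and 28 reads, and the highest group was Torin1 6 h at 0.156, 0.191 and 0.155 FPKM. Each group overlapped the next in the order of means, and with no expression minimum no comparison with NC was called (lowest adjusted p = 0.147, limma, at an unadjusted p of 0.0232 for IL-6 at 3 h). The IL-6 3 h libraries, with 3, 6 and 6 reads, all lay below NC (2.49-fold lower in the mean), and the Torin1 6 h libraries lay above those of Torin1 3 h and IL-10 6 h.

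PDK4 was also low in HepG2, at 0.0222, 0.0110 and 0.0471 FPKM in NC, and it was listed at 0 in 4 of 27 libraries, with 256 reads in all. After 3 h of Torin1 it stood at 0.0393, 0.0403 and 0.0955 FPKM, overlapping NC. After 6 h it stood at 0.184, 0.253 and 0.237 FPKM (0.225 ± 0.0364), from 40, 45 and 52 reads, above each of the other 24 libraries. Without the expression minimum, a fit over 31844 genes gave a 6 h change of 0.25 (SE 0.02, adjusted p = 5.54e-08, limma) and an adjusted p of 0.288 at 3 h. The ratio of means at 6 h was 8.39. An antisense gene, PDK4-AS1, has its own entry, and no source used here says whether reads were counted by strand.

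HCT116 had almost no RNA of the other members. PCK1 was listed at 0 in all 27 HCT116 libraries, G6PC1 had 1 read in all, PPARGC1A 11, FBP1 102 (at most 0.15 FPKM) and IGFBP1 159 (at most 0.196 FPKM). Between the NC libraries of the lines, IGFBP1 was higher in HepG2 by 6.90 on the log2 scale (SE 0.07, adjusted p = 5.25e-45, limma), where 85.6% of 12992 genes were called. A 0 in the table can be a failed estimate, so no fold is given against one.

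PDK4 was the exception, and higher in HCT116 NC than in HepG2 NC (HepG2 minus HCT116 −0.43, SE 0.05, adjusted p = 5.71e-11, limma). HCT116 NC libraries held 0.362, 0.434 and 0.359 FPKM (0.385 ± 0.0427). Torin1 libraries held 1.52, 1.5 and 1.82 FPKM at 3 h (1.62 ± 0.178) and 1.87, 2.04 and 1.88 at 6 h (1.93 ± 0.0948). Every Torin1 library was above every other HCT116 library. These 6 libraries are the only ones with 1 FPKM or more, so PDK4 entered the test only through them. With no expression minimum, over 33683 genes, PDK4 had adjusted p = 4.75e-10 at 3 h and 3.93e-11 at 6 h (limma). With the minimum, the mean was 4.2-fold that of NC at 3 h (0.92, SE 0.06, adjusted p = 1.96e-10), where 53.7% of genes were called, and 5.01-fold at 6 h (1.08, SE 0.06, adjusted p = 1.5e-11), where 57.2% were called.

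Among the cytokines in HCT116, PDK4 stood at 0.607, 0.492 and 0.667 FPKM after 3 h of IL-10 (0.589 ± 0.0886), above NC. The change of 0.20 was called (adjusted p = 0.0201, limma, 38.8% of genes called) in 10 of 15 alternatives. It was not called without NC library 1 or 3 or IL-10 library 1 or 3, with adjusted p up to 0.0866. At 6 h IL-10 gave 0.10 (adjusted p = 0.296, 20.5% of genes called). IL-6 gave 0.16 at 3 h (adjusted p = 0.0582, 31.6%) and 0.12 at 6 h (adjusted p = 0.236, 16.6%). TNF-α gave −0.07 at 3 h (adjusted p = 0.42, 41.6%) and 0.01 at 6 h (adjusted p = 0.894, 33.9%). None of these last 5 was called.

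Which line had the larger PDK4 response to Torin1 depended on the scale at 6 h but not at 3 h. On log2(FPKM + 1) with no minimum, the Torin1 change in HepG2 minus that in HCT116 was −0.87 at 3 h (SE 0.06, adjusted p = 2.04e-13, limma) and −0.83 at 6 h (adjusted p = 5.95e-13), so HCT116 changed more. As a ratio of means, the 3 h response was 2.18 in HepG2, where the libraries overlapped NC, and 4.2 in HCT116. The 6 h response was 8.39 in HepG2 and 5.01 in HCT116. The differences between these ratios were not tested.

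**Figure D3:**
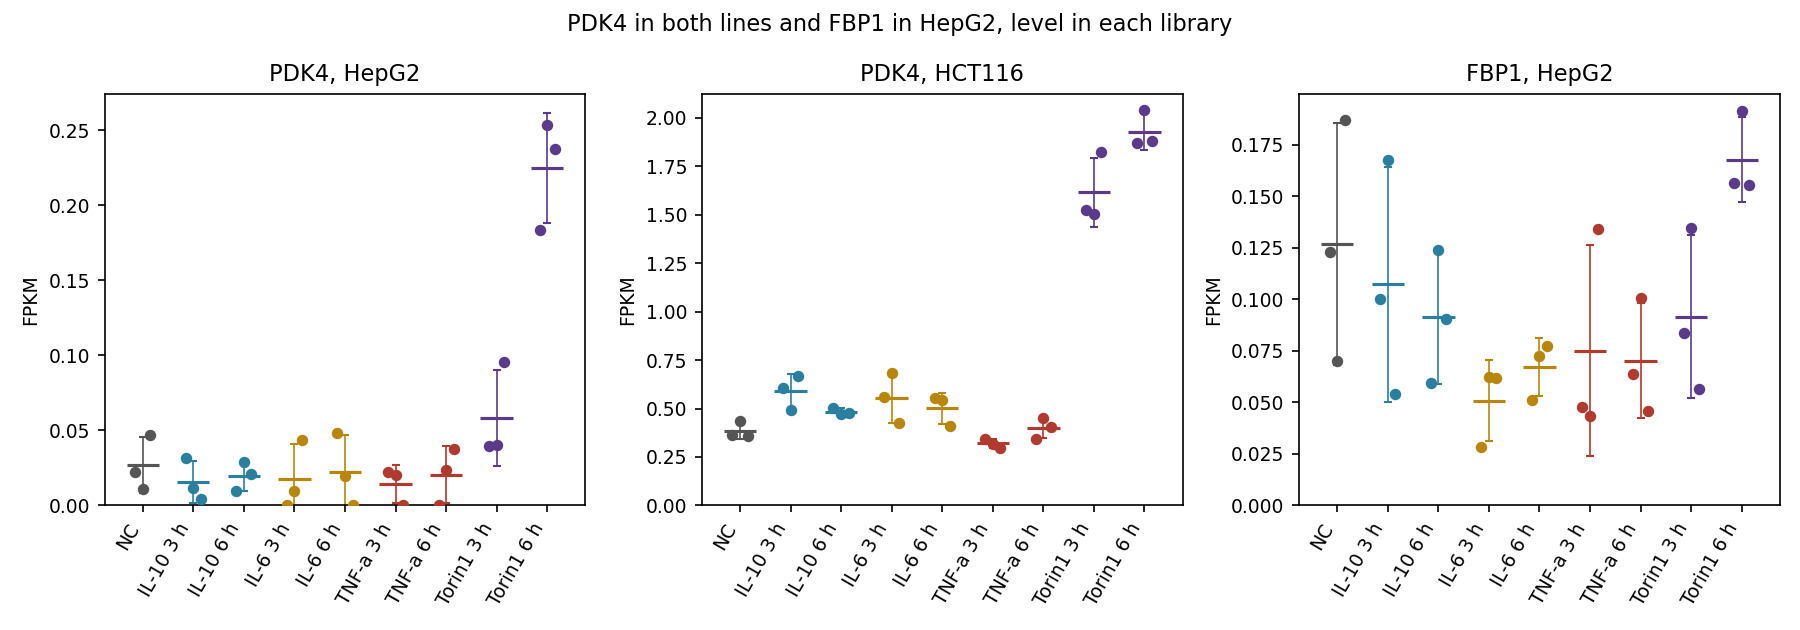
Levels of PDK4 in the 27 libraries of each line and of FBP1 in the 27 HepG2 libraries, on linear FPKM axes that differ between panels. Points are libraries and bars are group means ± SD (n = 3, cut at 0). PDK4 in HCT116 stands at 1.5 to 2.04 FPKM in the 6 Torin1 libraries, and FBP1 stays at or below 0.191 FPKM in HepG2.

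Other genes of the pathway were read from lists, which share IRS2, INSR and TRIB1 between the insulin signalling and insulin-repressed lists. In HepG2 after Torin1, the other insulin-repressed or FOXO-linked genes were called higher in 10 of 14 tested and lower in 1 at 3 h (median log2 change 0.251), and higher in 10 and lower in 2 at 6 h (median 0.481). The median over all genes was −0.0355 at 3 h and −0.0332 at 6 h. The list had 78.6% of genes called at 3 h and 85.7% at 6 h, against 45.5% and 59.9% of all genes. CCNG2, a cyclin and FOXO target, stood at 9.74 ± 0.083 FPKM at 3 h against 1.46 ± 0.0422 in NC (2.12, adjusted p = 1.01e-15, limma). IRS2, an adaptor of the insulin receptor that insulin represses, rose from 0.516 ± 0.0144 to 1.63 ± 0.0634 FPKM at 3 h (0.79, adjusted p = 2.49e-10) and 2.08 ± 0.0993 at 6 h. Its median over the HepG2 libraries was 0.532 FPKM. IRS2 may thus have passed the minimum only through Torin1 libraries, where it had to be high. It counts in this list and in the insulin signalling list. CPT1A, which carries fatty acids into mitochondria, rose from 9.10 to 18.8 FPKM at 6 h (0.97).

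Of 18 insulin signalling genes tested, 10 were higher and 4 lower at 3 h of Torin1 (median 0.156), and 11 higher and 6 lower at 6 h (median 0.361), which are 77.8% and 94.4% called. SGK1, a kinase that mTORC2 activates, rose from 19.0 ± 0.906 to 50.9 ± 2.75 FPKM at 3 h (log2 change 1.37, adjusted p = 2.94e-09, limma). RICTOR, a subunit of mTORC2, rose from 5.34 to 9.21 FPKM at 3 h (0.69) and 11.5 at 6 h (0.98). Of 22 transcription factors and coactivators of gluconeogenic promoters, 12 were higher and 4 lower at 3 h (median 0.211), and 13 higher and 3 lower at 6 h (median 0.189), 72.7% called at each hour. FOXO1 itself rose from 0.671 ± 0.0131 to 1.95 ± 0.127 FPKM at 6 h (0.82, adjusted p = 1.47e-13). Its median over the HepG2 libraries was 0.791 FPKM, so FOXO1 too may have passed the minimum only through libraries where it was high. NR0B2, a receptor that represses other nuclear receptors, rose from 32.5 to 71.3 FPKM at 3 h (1.11, adjusted p = 8.92e-12).

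The rest of the gluconeogenic pathway did not move as a block with Torin1. Of 10 other gluconeogenesis and glucose release genes tested, 2 were higher and 3 lower at 3 h (median −0.037), and 4 were higher and 4 lower at 6 h (median −0.092). These are 50% and 80% of those tested, against 45.5% and 59.9% of all genes. SLC2A2, the glucose transporter GLUT2, rose from 12.2 ± 0.315 to 23.7 ± 2.1 FPKM at 3 h (log2 change 0.90, adjusted p = 2e-11, limma) and 36.9 ± 0.775 at 6 h (1.52, adjusted p = 2.38e-15). G6PC2, the pancreatic islet relative of G6PC1, was listed at 0 in all 27 HepG2 libraries. MPC2, a subunit of the mitochondrial pyruvate carrier, fell from 28.2 to 16.96 FPKM at 6 h (−0.70). Of 11 genes of the pyruvate dehydrogenase complex and its regulators, 3 were higher and 2 lower at 3 h, 45.5% called as over all genes, and 4 higher and 5 lower at 6 h (81.8%). Of 8 PGC-1 relatives and partners, 2 were higher and 4 lower at 3 h, and 2 higher and 3 lower at 6 h (75% and 62.5% called). Of 5 other genes of the IGF axis, 1 was higher and 1 lower at 6 h. Of 10 genes that insulin induces, 3 were higher and 1 lower at 3 h (40% called), and 2 higher and 4 lower at 6 h (60%), among them FASN, fatty acid synthase (−0.53).

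After IL-6 and TNF-α, the gluconeogenesis and the insulin-repressed lists held more genes called lower than higher, except gluconeogenesis at 6 h of IL-6, which held 1 of each. Calls over all genes leaned the same way. After IL-6 they were 1633 higher and 2194 lower at 3 h (33.9% of genes) and 856 and 1332 at 6 h (19.4%). After TNF-α they were 1447 and 1903 at 3 h (29.7%) and 1339 and 1893 at 6 h (28.7%). After IL-10, the insulin-repressed list held 3 higher and 6 lower at 3 h, and 2 higher and 2 lower at 6 h. All genes held 809 higher and 1340 lower at 3 h of IL-10 (19.1%), and 212 and 1105 at 6 h (11.7%). After IL-6, 1 of the 10 gluconeogenesis genes was higher and 2 lower at 3 h. PC, pyruvate carboxylase, was the one higher at both hours, from 5.86 to 8.67 FPKM at 6 h (log2 change 0.50, adjusted p = 5.96e-09, limma). Of the 14 insulin-repressed or FOXO-linked genes, 1 was higher and 5 lower at 3 h (median −0.098 against −0.0242 over all genes), and 2 higher and 5 lower at 6 h, where the median was 0.001 and 3 were lower without NC library 3.

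After TNF-α, 2 of the 10 gluconeogenesis genes were lower at 3 h and 8 of 10 at 6 h, with a median of −0.147 against −0.0259 over all genes. The count of 8 was unstable: it was 3 without NC library 3, 4 without TNF-α library 2, 5 without TNF-α library 1 or 3, 4 with no expression minimum, 4 against IL-10 and 5 with median-of-ratios scaling (median −0.127). SLC2A2 fell from 12.2 to 8.76 FPKM at 6 h (log2 change −0.44). Of the 14 insulin-repressed or FOXO-linked genes, 3 were higher and 7 lower at 3 h (median −0.164 against −0.0156), with 3 lower against IL-10. CEBPA, a factor of hepatocyte differentiation, fell from 40.6 to 21.3 FPKM at 6 h of TNF-α (−0.90, adjusted p = 3.17e-10, limma). Of the 22 transcription factors and coactivators, 10 were higher and 4 lower at 3 h of TNF-α, and 4 higher and 5 lower at 6 h. The same list held 10 higher and 4 lower at 3 h of IL-6, and 2 higher and 4 lower at 6 h. Against IL-10, 5 and 2 of this list were higher at 3 h of TNF-α and IL-6, where 16.1% and 22.8% of all genes were called. Against NC, the shares of all genes called were 29.7% and 28.7% at 3 h and 6 h of TNF-α. For IL-6 they were 33.9% and 19.4%.

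In HCT116, where 5 of the 6 members were not measurable, Torin1 was still followed by higher insulin-repressed or FOXO-linked genes: 8 of 11 tested were higher at 3 h (median 0.357 against −0.0046 over all genes), and 8 higher and 1 lower at 6 h (median 0.566 against −0.0204). CCNG2 rose from 0.787 to 7.78 FPKM at 6 h (log2 change 2.30) and IRS2 from 1.21 to 3.59 (1.05). Of 10 genes of the pyruvate dehydrogenase complex and its regulators, the list nearest to PDK4, 7 were higher and 1 lower at 3 h. Of 18 insulin signalling genes, 8 were higher and 6 lower at 3 h. Over all genes, 53.7% were called at 3 h and 57.2% at 6 h of Torin1 in HCT116. The difference between lines was not tested for these lists.

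**Figure D4:**
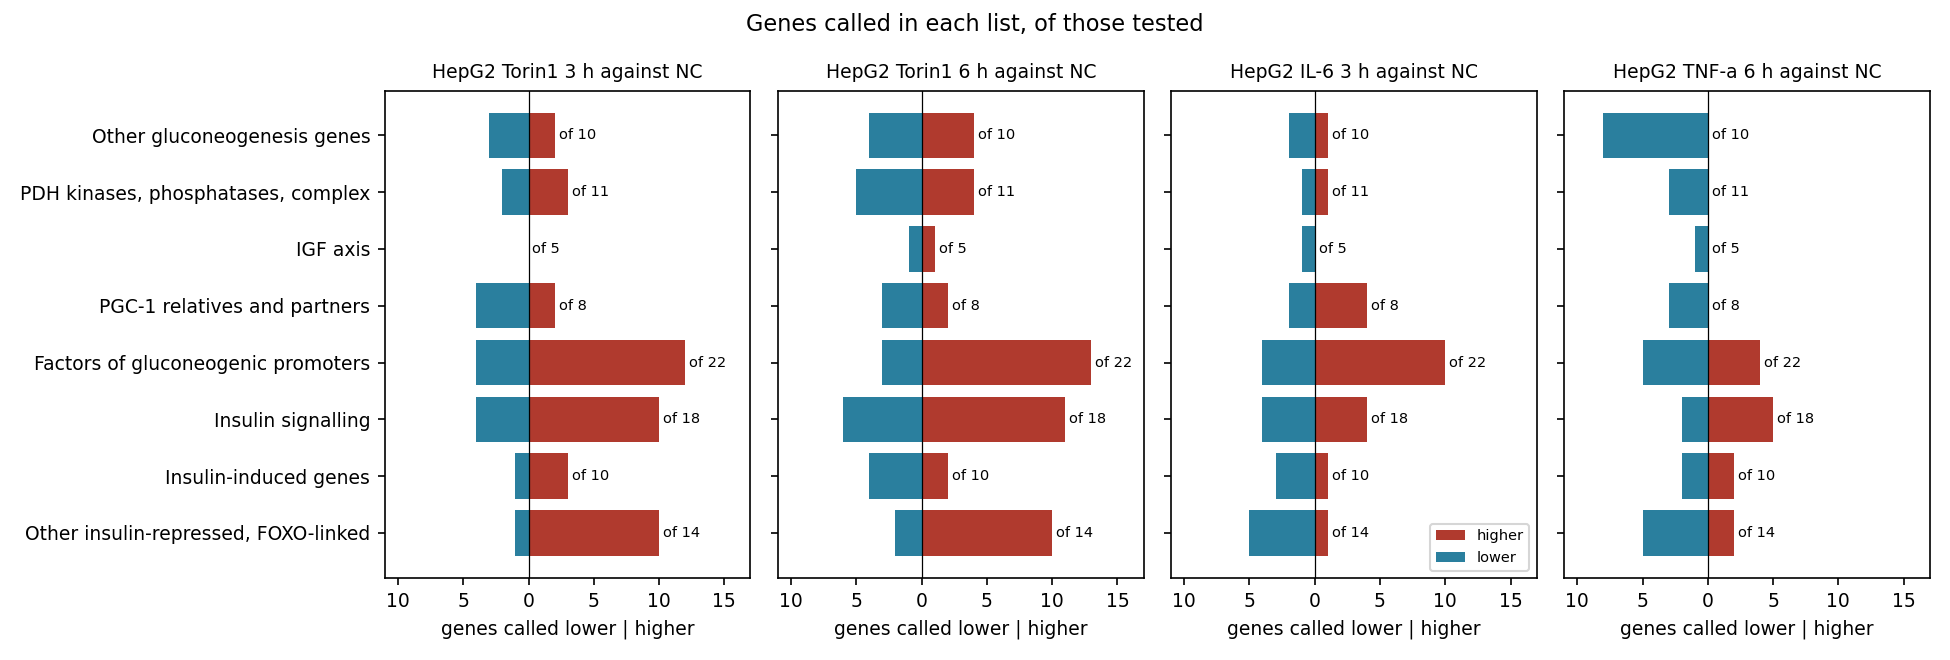
Number of genes of each pathway list called higher (right) or lower (left) against NC in HepG2 after Torin1 at 3 h and 6 h, IL-6 at 3 h and TNF-α at 6 h, with the number tested beside each bar. For Torin1 at 3 h the insulin-repressed or FOXO-linked list holds 10 higher and 1 lower of 14, and for TNF-α at 6 h the gluconeogenesis list holds 8 lower of 10, a count that was 3 without NC library 3.

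Across the 9 HepG2 group means of log2(FPKM + 1), G6PC1 and PPARGC1A were the most alike pair of members (Pearson r = 0.966), followed by PPARGC1A and IGFBP1 (0.854) and G6PC1 and IGFBP1 (0.780). PCK1 ran apart, with r of 0.109 to 0.274 to the other three. These are descriptions over 9 means that share NC libraries and a single fit. Both Torin1 groups held the highest means of G6PC1, PPARGC1A and IGFBP1, and likeness without the Torin1 groups was not computed. Among 2687 genes whose group means spanned at least 0.5 on the log2 scale, the nearest to G6PC1 were HAL (r = 0.986), RFC1 (0.984) and ARHGEF28 (0.984). Nearest to PPARGC1A were LETMD1 (0.996), HSD17B2 (0.995) and MTMR12 (0.993). For IGFBP1 they were LPAR6 (0.982), NKAPD1 (0.974) and IL1RN (0.973), and for PCK1 they included NAA80 (0.946) and LURAP1L (0.915). The most unlike were DDX3X for G6PC1 (−0.988), AP1S3 for PPARGC1A (−0.986), GINS1 for IGFBP1 (−0.981) and INAFM2 for PCK1 (−0.944).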

How the data were processed

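Per the labels' protocols, paired-end libraries of poly(A) RNA were sequenced on an MGISEQ-2000RS. The submitters' processing notes name FastQC, HISAT2, StringTie, DESeq2 and the GRCh38 build, without versions or roles. The authors deposited FPKM values for 50037 gene entries in 54 libraries, each column matched to its sample by title. Another 48 columns of unnamed comparisons were not used.

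Whole reads were recovered from the steps between low FPKM values, within a tolerance of 0.01 read, for 36451 of 36451 genes above 0. The library sizes behind the FPKM followed median-of-ratios factors of these reads (ratio 0.998 to 1.002), so values were already scaled between libraries. FTH1 was listed at 0 in every library, so a 0 can be a failed estimate. Such limits of depth cover counting error only.

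Each line was fitted with limma 3.58.1 (empirical Bayes with a trend, R 4.3.3) on log2(FPKM + 1) over all 9 groups, for genes at 1 FPKM or more in at least 3 of 27 libraries (11280 genes in HepG2, 11395 in HCT116, 12992 in either line). P-values were adjusted by Benjamini-Hochberg over all genes tested, two-sided, and called below 0.05. The fit was tested on simulated reads with known changes in few genes and the same spread setting for every gene. Broad changes and the real spread among libraries were not simulated. Alternatives were a pseudocount of 0.1, other filters and scalings, limma-voom on recovered reads, a replicate block, only the 6 libraries compared, IL-10 as reference and each library left out.

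The 3 libraries of each group are biological replicates per the series text. Separate cultures are not mentioned, so each p-value rests on the spread among the libraries alone and this spread may be technical. The 6 members and the pathway lists were chosen with earlier results of these data known. List genes named were, per list, up to 4 with the largest called change for Torin1 in HepG2 and 1 elsewhere, and genes at 0, leaving out genes with a second entry. The 3 genes most like a member and the 1 most unlike were taken by Pearson correlation of the 9 HepG2 group means, and 1 of them is not reported here. A further Torin1 group that the series text mentions, with recovery in drug-free medium, was not analysed here. Figures used matplotlib 3.10.9.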

Additional observations from a re-analysis of the deposited data

Results flagged for a closer look

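The change from NC differed between 6 h and 3 h of the same agent for 13 pairs of member and agent in HepG2. The test was that of the difference in the same limma fit (adjusted p below 0.05), with 4 members tested for each of 4 agents. Of all genes, 36.4% were called between the hours for Torin1, 25.4% for TNF-α, 23.5% for IL-6 and 16% for IL-10. Values are the 6 h change minus the 3 h change on the log2(FPKM + 1) scale, and the NC libraries cancel in them. PCK1, the gluconeogenic carboxykinase, was lower at 6 h by each such value: −0.93 for Torin1, −0.59 for TNF-α and −0.31 for IL-6. PPARGC1A, the coactivator, was higher at 6 h for all 4 agents, by 0.87 for Torin1, 0.45 for TNF-α, 0.32 for IL-6 and 0.28 for IL-10. G6PC1 was higher at 6 h by 0.54 for Torin1 and 0.45 for IL-10. IGFBP1 was higher at 6 h by 0.86 for Torin1, 0.40 for IL-6 and 0.29 for TNF-α, and lower for IL-10 (−0.29). Its TNF-α and IL-10 calls were each made in 9 of 15 alternatives. Medium alone was not sampled at both hours, so time in culture and time with an agent cannot be told apart.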

How the results depend on the processing

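Of 1295 member results recomputed under an alternative, 1228 kept direction and call, 41 lost the call, 14 gained it and 12 changed direction, and none of the 12 was called. The cause of these changes was not tested. With the replicate block, 85 of 85 kept their call. Same-numbered libraries of compared groups had correlations of −0.117 to 0.107 in their deviations from group means, so the numbers were not taken to pair them. Scalings moved the median over all genes by at most 0.056 on the log2 scale. Low members limit precision: over the 27 HepG2 libraries, PDK4 rested on 256 reads, FBP1 on 246 and PCK1 on 2732.

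The number of members called changed as follows. Leaving out 1 library gave 0 to 1 for HepG2 IL-10 6 h against NC, 0 to 1 for HCT116 IL-10 3 h and 0 to 1 for HCT116 IL-6 3 h. It gave 3 to 4 for HepG2 IL-6 3 h and 2 to 3 for IL-6 6 h against NC, for IL-6 and TNF-α at 3 h against IL-10, and for 6 h against 3 h of IL-10 and TNF-α. With only the 6 libraries compared, it was 1 for IL-6 3 h against IL-10, 1 for TNF-α 3 h against IL-10 (3 each in the fit of all groups) and 0 for HCT116 IL-10 3 h. With IL-10 as reference it was 2 for HepG2 TNF-α 6 h and 1 for HCT116 TNF-α 3 h. HCT116 IL-6 3 h had 1 with a pseudocount of 0.1 and 1 with limma-voom.

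Direction changed, with log2 values from lowest to highest over left-out libraries, for PCK1 at IL-10 6 h (−0.024 to 0.075), Torin1 6 h (−0.019 to 0.079), IL-6 3 h against IL-10 (−0.016 to 0.13) and Torin1 6 h against IL-10 (−0.033 to 0.037, and −0.0061 with total-read scaling). The same held for IGFBP1 at TNF-α 3 h against IL-10 (−0.045 to 0.12) and PDK4 in HCT116 at TNF-α 6 h (−0.011 to 0.044, −0.0023 with total-read scaling and −0.086 with IL-10 as reference). With IL-10 as reference, PDK4 at IL-6 3 h in HCT116 gave −0.032, and among list genes SGK1 at IL-6 6 h gave 0.00077, SREBF1 at Torin1 3 h −0.0059 and IGF2R at Torin1 6 h 0.091.

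Counts of all genes called moved by over 1.5 times in HepG2 with only the 6 libraries compared: 2149 to 1364 for IL-10 3 h, 3827 to 2221 for IL-6 3 h, 2575 to 459 and 1817 to 770 for IL-6 and TNF-α against IL-10 at 3 h, and 1805 to 1020 and 2649 to 930 for 6 h against 3 h of IL-10 and IL-6. IL-10 6 h had 1317, and 782 with total-read scaling, 552 without NC library 2, 798 without NC library 1, 813 without IL-10 library 1 and 760 without IL-10 library 3. IL-10 3 h had 1407 without IL-10 library 2. TNF-α 3 h had 3350, and 1817 against IL-10. In HCT116, IL-10 6 h had 2332, with 1051 with only the 6 libraries and 1295 without IL-10 library 1, and IL-6 6 h had 1889, with 1215 with only the 6 libraries and 1138 without a filter, 1123 without NC library 3, and 1191 and 1141 without IL-6 library 1 and 2. IL-6 in HCT116 had 3596 genes at 3 h, against 27 with IL-10 as reference, and 13 at 6 h with that reference.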
